A study of Saccharomyces cerevisiae with 6 samples.

Results

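The genes of uracil nucleotide synthesis in budding yeast were compared between a β-carotene producer and the strain it was built from. The 10 genes were chosen by name from the count tables: 9 enzyme genes (URA1, URA2, URA3, URA4, URA5, URA6, URA7, URA8 and URA10) and PPR1, the gene of their transcriptional activator. All 10 were among the 6445 genes listed, and all 10 were among the 6125 that passed the filter on low counts. The producer (genotype label CrtI/E/YB, 3 libraries) carries genes of carotenoid synthesis. Its parent, CEN.PK2-1C (genotype label WT, 3 libraries), is a haploid laboratory strain of mating type a that is widely used with several auxotrophies, including one for uracil. Both strains were grown in YPD, a rich glucose medium that supplies pyrimidines, at 30 °C with shaking at 250 rpm for 18 hours. The labels name no URA3 allele for either strain and do not say how the carotenoid genes were introduced or how many clones were sampled. Of 5 genes specific to mating type a, STE2 (281 to 337 CPM, counts per 1000000 counts of the library, TMM-scaled), STE6, BAR1 and MFA2 were each above all 3 α-specific genes in all 6 libraries, where the highest of those, STE3, had 13.8 to 19.5 CPM. The fifth, MFA1, had 9.69 to 13.3 CPM, below STE3 and close to MF(ALPHA)2 at 8.33 to 10.8 CPM.

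Pyrimidine synthesis builds uridine monophosphate from glutamine, bicarbonate, aspartate and phosphoribosyl pyrophosphate. Cells can instead take up uracil through the permease Fur4 and convert it to the same nucleotide by salvage. When pyrimidines run short, intermediates of the pathway activate Ppr1, a zinc cluster protein of the Gal4 type that raises transcription of URA1, URA3, URA4 and URA10. The first enzyme, Ura2, is in addition inhibited by UTP, the end product. FUR4 lies next to GAL1 and is higher in the producer, so the question was whether the synthesis genes differ between the strains along with the permease.

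Ppr1 recognises a pair of CGG triplets that face each other across 6 bases of any kind, that is CGG, the spacer and CCG, which reads the same on both strands. This motif was searched in the 500 bases before the start codon of 6127 genes in RefSeq's R64 genome, the assembly behind the sacCer3 build, and was found in 168 of them (2.74%). URA1, URA3 and URA4 held it, which is 3 of the 10 genes, and the other members, URA10 and PPR1 included, had no match in that window. Outside the members, FUI1 and FCY1 of uptake and salvage held 1 match each and the nucleotidase gene PHM8 held 3, of which 2 overlap. The sites of the members are shown because this pair is the sequence Ppr1 is known to recognise, although URA10, a known target, held none in the window. They are printed 5′ to 3′ on the strand of the gene, with the motif in capitals and 12 bases on each side.
URA1, chrXI:24991-25026, plus strand: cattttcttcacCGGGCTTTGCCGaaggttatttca
URA1, chrXI:25022-25057, plus strand: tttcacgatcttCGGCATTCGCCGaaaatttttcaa
URA3, chrV:116003-116038, plus strand: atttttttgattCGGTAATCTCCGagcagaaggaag
URA4, chrXII:963643-963678, plus strand: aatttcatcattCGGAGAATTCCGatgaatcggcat

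Between the motif and the start codon lay 200 and 169 bases in URA1, 140 in URA3 and 118 in URA4. The second URA1 site also had the longer form, with TT before and AA after the pair, which was found in 2 of the 6127 windows. FUR4 had no such pair in its window. A match in letters is a description and not evidence of binding.

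No gene of the pathway passed the test between the strains. In edgeR's quasi-likelihood test 0 of 10 members passed an adjusted p of 0.05, against 1.14% of all genes tested (70 of 6125, with 0.8% higher and 0.343% lower). DESeq2 also called 0 of the 10, against 14.6% of all genes (842 of 5768 with an adjusted p), and limma-voom 0, against 1.04% (64 of 6125). The count over all genes rests on single libraries: it was 1077 (17.5%) without parent replicate 1, and 22, 15, 21 and 16 once producer replicate 1, 2 or 3 or parent replicate 3 was dropped, with 0 members among the calls each time. At an unadjusted p under 0.05 there was 1 member, URA8, against 27.3% of all genes. The median log2 fold change (producer over parent) of the members was -0.0091, beside -0.0073 for all genes tested. The members' log2 fold changes ran between -0.12 and 0.17, with 4 positive and 6 negative. FUR4 was 5.03-fold higher in the same fit. In a bulk pellet, a change in some of the cells and a smaller change in all of them cannot be told apart.

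**Figure D1:**
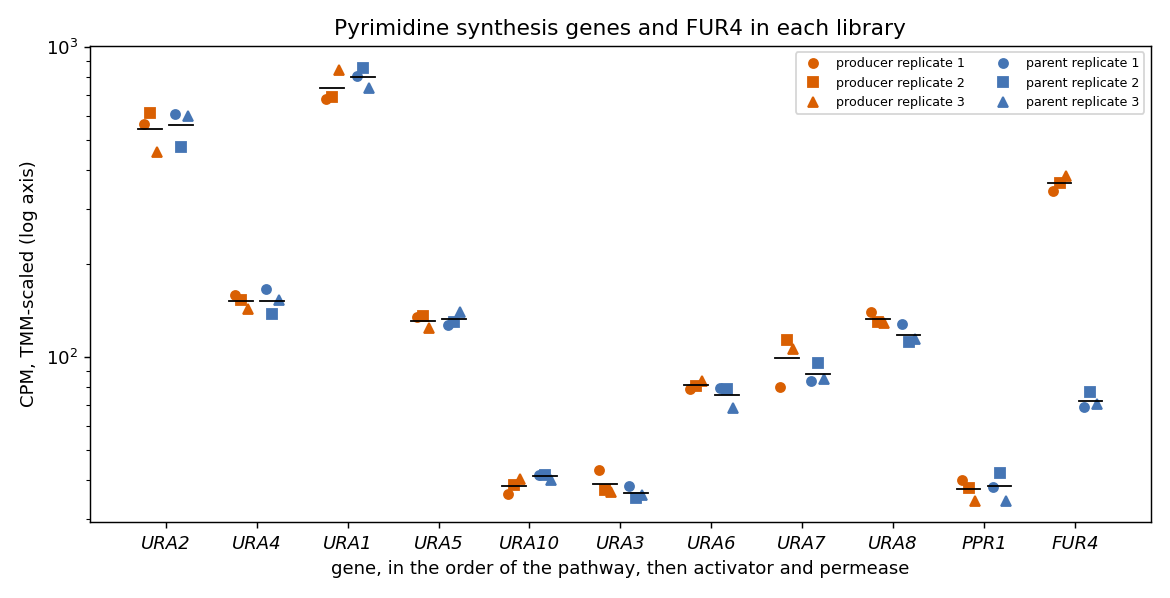
TMM-scaled CPM on a log axis for each pyrimidine synthesis gene, in the order of the reactions, and for PPR1 and FUR4. Each point is 1 library, with producer libraries to the left of parental ones, and the black line is the mean of 3 libraries. Producer and parental points interleave for every gene but URA8, where they lie close together, and FUR4, where the producer libraries are at 342 to 383 CPM and the parental ones at 69.0 to 77.1 CPM.

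The pathway opens with URA2 (YJL130C, chromosome X, 165723 to 172367, minus strand), which encodes a large protein with carbamoyl phosphate synthetase and aspartate carbamoyltransferase activities. URA2 had 564, 610 and 459 CPM in the producer libraries, against 607, 475 and 599 CPM in the parental ones. The ranges overlapped almost completely, and each strain had 1 library well below the others. The log2 fold change was -0.04 ± 0.13 (SE), with an edgeR adjusted p of 0.867.

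URA4 (YLR420W, chromosome XII, 963785 to 964879, plus strand) encodes dihydroorotase, which closes the pyrimidine ring. Its level was 158, 152 and 143 CPM in the producer, against 165, 137 and 152 CPM in the parent. The strain means, 151 ± 7.47 CPM in the producer and 151 ± 13.7 CPM in the parent (SD, n = 3 each), were equal to the digits shown.

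URA1 (YKL216W, chromosome XI, 25215 to 26159, plus strand) encodes the cytosolic dihydroorotate dehydrogenase, which oxidises the ring to orotate. Per coding length it was the most abundant member, and it had 680, 691 and 839 CPM in the producer, against 803, 857 and 738 CPM in the parent. Producer replicates 1 and 2 lay below all parental libraries and producer replicate 3 lay among them. The log2 fold change was -0.12 ± 0.11 (SE), the most negative of the 10, with an edgeR adjusted p of 0.509. Duplicate reads were removed before counting, which can lower the values of abundant genes.

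Orotate phosphoribosyltransferase, which attaches the ribose phosphate, has a major and a minor gene. URA5 (YML106W, chromosome XIII, 56773 to 57453, plus strand), the major one, stood at 134, 135 and 124 CPM in the producer, against 127, 130 and 140 CPM in the parent. URA10 (YMR271C, chromosome XIII, 806865 to 807548, minus strand), the minor one, stood at 36.1, 38.7 and 40.3 CPM in the producer, against 41.7, 41.7 and 40.1 CPM in the parent. The URA5 ranges overlapped. For URA10 producer replicate 3 lay just above the lowest parental library and the other producer libraries lay below all parental ones. The log2 fold changes were -0.01 ± 0.07 (SE) for URA5 and -0.10 ± 0.08 (SE) for URA10.

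The final step to uridine monophosphate is the decarboxylase encoded by URA3 (YEL021W, chromosome V, 116167 to 116970, plus strand), which is also a common selection marker. URA3 had 43.2, 37.3 and 36.6 CPM in the producer libraries, against 38.3, 35.0 and 35.9 CPM in the parental ones. Producer replicate 1 was the highest library and the rest lay together. The log2 fold change was 0.10 ± 0.09 (SE), with an edgeR adjusted p of 0.487. Transcripts of a mutant or an added yeast copy of URA3 count under the same name, so these values do not say which allele was expressed. Of 4 common markers, URA3 among them, 0 passed in edgeR, DESeq2 or limma-voom, against 1.14%, 14.6% and 1.04% of all genes. At an unadjusted p under 0.05 there were 0, against 27.3% of all genes. The median of the 4 markers was 0.16 (0.02 with the GC-content correction). HIS3, of histidine synthesis, was at 111, 114 and 76.0 CPM in the producer, against 94.2, 39.1 and 63.3 CPM in the parent. LEU2, of leucine synthesis, and TRP1, of tryptophan synthesis, had log2 fold changes of 0.13 ± 0.14 (SE) and 0.18 ± 0.08 (SE). The log2 fold change of HIS3 was 0.61 ± 0.29 (SE), with an edgeR adjusted p of 0.216. With the GC-content correction HIS3 was at 0.33, LEU2 at -0.04 and TRP1 at 0.08. Without parent replicate 1, HIS3 (0.97, adjusted p = 0.0468) and TRP1 (0.26, adjusted p = 0.0402) passed in edgeR, where 17.5% of all genes did.

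Beyond uridine monophosphate, URA6 (YKL024C, chromosome XI, 392526 to 393140, minus strand) encodes the kinase that makes the diphosphate. Its level was 78.8, 80.7 and 83.4 CPM in the producer, against 79.6, 78.5 and 68.5 CPM in the parent. Parent replicate 3 was the low library and the other 5 lay within a few CPM. The log2 fold change was 0.10 ± 0.08 (SE), with an edgeR adjusted p of 0.418.

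CTP synthase, which turns UTP into CTP, is encoded by URA7 and URA8. URA7 (YBL039C, chromosome II, 143989 to 145728, minus strand) had 79.7, 113 and 106 CPM in the producer, against 83.9, 95.7 and 84.6 CPM in the parent. Producer replicate 1 was the lowest of all 6 libraries and producer replicates 2 and 3 the highest, so its log2 fold change of 0.17 carried an SE of 0.12. Without producer replicate 1 it was 0.31, with an edgeR adjusted p of 0.195. URA8 (YJR103W, chromosome X, 620754 to 622490, plus strand) had 140, 130 and 129 CPM in the producer, against 128, 112 and 114 CPM in the parent.

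URA8 was the only member whose libraries did not overlap between the strains, 1 of 10, where 33.7% of all tested genes had such a separation in either direction. Its log2 fold change was 0.17 ± 0.07 (SE), with an edgeR p of 0.0412 that became 0.168 after adjustment over all genes. With a correction for gene GC content the value was -0.05 ± 0.05 (SE). URA8 ends 59 bases from the end of SOD1, the abundant superoxide dismutase gene on the opposite strand, which was at 459, 443 and 435 CPM in the producer, against 430, 314 and 403 CPM in the parent. Whether counting used the strand is not known here, and the part of SOD1 reads in the URA8 values was not tested. None of the 10 coding regions overlaps another listed gene.

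PPR1 (YLR014C, chromosome XII, 172268 to 174982, minus strand) encodes the activator itself, which is controlled mainly through its activity. It had 40.0, 37.8 and 34.4 CPM in the producer, against 38.1, 42.2 and 34.4 CPM in the parent, and the ranges overlap. The log2 fold change was -0.03 ± 0.10 (SE), with an edgeR adjusted p of 0.864. Of the 4 target genes named for Ppr1, URA1, URA3, URA4 and URA10, 0 passed in edgeR, DESeq2 or limma-voom. The shares of all genes were 1.14%, 14.6% and 1.04%, so 0 of 4 says little about these targets. At an unadjusted p under 0.05 there were 0, against 27.3% of all genes. Their median log2 fold change was -0.05, beside -0.0073 for all genes tested.

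For each gene by itself, the spread of these libraries gives a bound on what could have been missed between the sampled libraries. The 95% intervals of the 10 members ran, at their extremes, up to 0.45 for URA7 and down to -0.38 for URA1 on the log2 scale, which is 1.37-fold higher and 1.30-fold lower. All 10 intervals lay within 1.5-fold in either direction, as did 81.8% of all genes tested. The interval of FUR4 was 2.16 to 2.51, and no member's interval reached it.

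**Figure D2:**
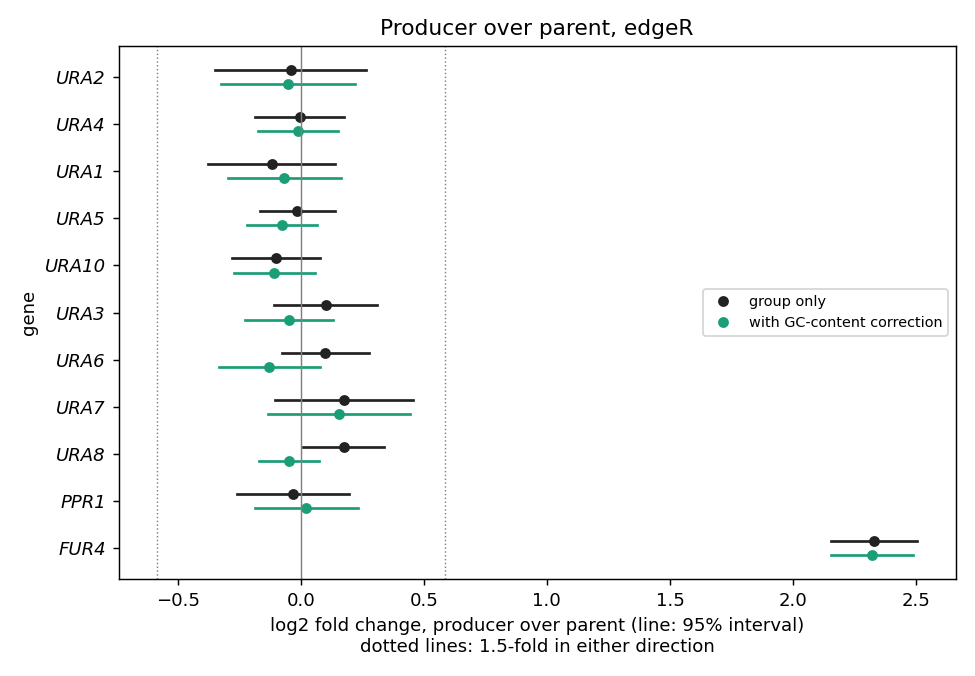
Log2 fold change of each gene, producer over parent, with its 95% interval, from edgeR with the group as the only term (black) and with the correction for gene GC content (green). The 10 pyrimidine synthesis genes lie between the dotted lines at 1.5-fold in both fits, and FUR4 lies at 2.33 and 2.32.

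Part of the small differences moved with base composition. Across 5988 genes, which are not independent, Spearman's rho between GC content and the producer to parent log2 fold change was 0.649. For each library's deviation from the mean of all libraries it was 0.609, 0.475 and 0.338 in the producer, against 0.218, -0.649 and -0.479 in the parent, so parent replicates 2 and 3 stood apart from the other 4 libraries. The members with the highest GC content were URA6 (45.7%), URA8 (45.5%) and URA3 (43.3%), and all 3 had positive log2 fold changes. With the correction these became -0.13 for URA6, -0.05 for URA8 and -0.05 for URA3, and PPR1 (38.6% GC) came to 0.02. After it, 2 of the 10 members had positive and 8 had negative values, 0 passed in edgeR and the median was -0.05. The background with that correction was 1.29% of 5988 genes.

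FUR4 (YBR021W, chromosome II, 281443 to 283344, plus strand) was at 342, 364 and 383 CPM in the producer, against 69.0, 77.1 and 70.4 CPM in the parent. Every producer library was far above every parental one. GAL1, whose coding region ends 835 bases upstream on the same strand, was at 1731, 1764 and 1432 CPM in the producer, against 33.2, 29.8 and 26.7 CPM in the parent. The edgeR log2 fold change of FUR4 was 2.33 ± 0.08 (SE), with an adjusted p of 1.94e-07.

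Set against each member within the same library, FUR4 stood higher in the producer for all 10. The log2 CPM of FUR4 minus that of PPR1 was 3.09, 3.27 and 3.47 in the producer, against 0.86, 0.87 and 1.03 in the parent. For URA6 it was 2.12, 2.17 and 2.20 in the producer, against -0.20, -0.03 and 0.04 in the parent. These differences are not per length, which cancels between the strains. For URA1, the most abundant member, it was -0.99, -0.93 and -1.13 in the producer, against -3.54, -3.47 and -3.39 in the parent. The producer to parent shift of these differences lay between 2.15 for URA8 and 2.45 for URA1. In each of the 10 comparisons the strains did not overlap. FUR4 was already known to be higher and enters all 10, so these values restate its shift beside each member and are not separate evidence. The two-sided exact permutation test gave 0.1 for each (adjusted p = 0.1 over 10), the smallest value that 3 against 3 libraries allow, and cannot pass 0.05. The members' own intervals, all within 1.5-fold, stand beside 2.16 to 2.51 on the log2 scale for FUR4.

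**Figure D3:**
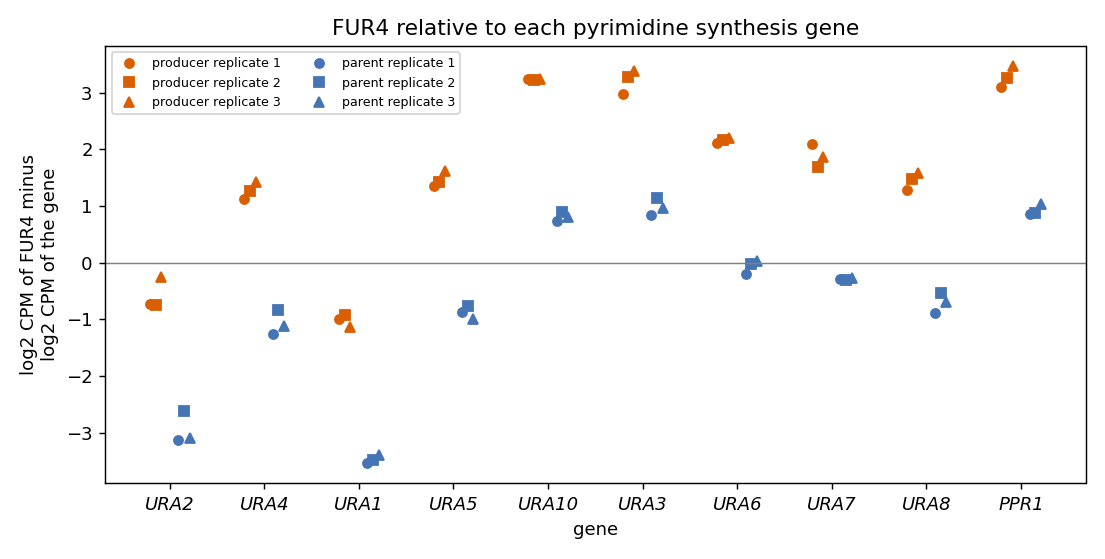
Log2 CPM of FUR4 minus log2 CPM of each pyrimidine synthesis gene, 1 point per library, with producer libraries to the left of parental ones. The producer points lie above the parental points for every gene, by 2.15 to 2.45 in the mean.

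Uptake and salvage of pyrimidines offered other genes that could differ with FUR4. Of 6 uptake genes, 1 rose in edgeR, FUR4 itself, and 5 did not pass. Of all genes tested, 0.8% passed as higher and 1.14% in either direction. FUR4, FUI1 and FUN26, 3 of the 6, had an unadjusted p under 0.05, where 27.3% of all genes did. FUR4 was already known to be higher and is counted in these values. FUI1, the uridine permease, had 109, 108 and 102 CPM in the producer, against 101, 83.6 and 84.2 CPM in the parent, with a log2 fold change of 0.24 ± 0.09 (SE) and an edgeR adjusted p of 0.120. FUN26, a nucleoside transporter of internal membranes, had 106, 99.8 and 95.1 CPM in the producer, against 93.5, 64.1 and 80.6 CPM in the parent, with 0.34 ± 0.12 (SE) and an adjusted p of 0.129. For both genes the strains did not overlap, by a narrow margin. Such a separation, in either direction, was seen for 33.7% of all genes tested. With the GC-content correction the log2 fold changes were 0.16 for FUI1 and 0.12 for FUN26. FCY2, the purine and cytosine permease, was at 0.11 ± 0.24 (SE) and its relatives FCY21 and FCY22, which may share reads with it, were at 0.16 ± 0.13 (SE) and 0.28 ± 0.17 (SE). Without parent replicate 1, FUI1 (0.34, adjusted p = 0.0186) and FUN26 (0.47, adjusted p = 0.0269) passed in edgeR, where 17.5% of all genes did. The median over the 6 uptake genes, FUR4 included, was 0.26 (0.14 with the GC-content correction). For all genes tested it was -0.0073 (-0.0024).

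Of 5 salvage genes, 0 passed in edgeR (1.14% of all genes) and 3 had an unadjusted p under 0.05 (27.3%). DESeq2 called 1 of them (14.6% of all genes) and limma-voom 0 (1.04%). FCY1, cytosine deaminase, had 184, 181 and 183 CPM in the producer, against 162, 144 and 148 CPM in the parent. Its libraries did not overlap, and the log2 fold change was 0.27 ± 0.07 (SE) with an edgeR adjusted p of 0.0698, or 0.09 ± 0.05 (SE) with the GC-content correction. FUR1, the uracil phosphoribosyltransferase that acts directly after Fur4, had 66.0, 68.2 and 57.4 CPM in the producer, against 73.4, 82.6 and 71.0 CPM in the parent. Its log2 fold change was -0.25 ± 0.09 (SE), with an edgeR adjusted p of 0.136, and the strains did not overlap. CDD1, cytidine deaminase, was at 0.20 ± 0.08 (SE), URK1, uridine kinase, at 0.03 ± 0.14 (SE) and URH1, uridine nucleosidase, at 0.08 ± 0.09 (SE). The CDD1 libraries did not overlap between the strains either. Of all genes tested, 33.7% were separated like FCY1, FUR1 and CDD1, in either direction. With the GC-content correction CDD1 was at 0.01, FUR1 at -0.30, URK1 at 0.11 and URH1 at 0.07. Without parent replicate 1, FCY1 passed in edgeR (0.32, adjusted p = 0.0182), where 17.5% of all genes did. The median over the salvage genes was 0.08 (0.07 with the GC-content correction).

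Of 2 pyrimidine nucleotidase genes, 0 passed in edgeR (1.14% of all genes) and 1 had an unadjusted p under 0.05 (27.3%). DESeq2 called 1 (14.6% of all genes) and limma-voom 0 (1.04%). The median was -0.42 (-0.33 with the GC-content correction). PHM8, a nucleotidase, had 55.4, 52.5 and 73.3 CPM in the producer, against 89.3, 132 and 96.8 CPM in the parent. The strains did not overlap, as for 33.7% of all genes tested in either direction. The log2 fold change was -0.81 ± 0.17 (SE) with an edgeR adjusted p of 0.0609. With the GC-content correction it was -0.70 ± 0.15 (SE), with an edgeR adjusted p of 0.076. DESeq2 gave an adjusted p of 0.000175. Without parent replicate 1 edgeR gave an adjusted p of 0.0189, where 17.5% of all genes passed. SDT1, a pyrimidine nucleotidase, was at -0.02 ± 0.11 (SE). Of 9 genes of nucleotide kinases and deoxynucleotide synthesis, 0 passed in edgeR (1.14% of all genes) and 1 had an unadjusted p under 0.05 (27.3%). DESeq2 called 1 (14.6% of all genes) and limma-voom 0 (1.04%). The median of the 9 was 0.09 (-0.03 with the GC-content correction). RNR1, the large subunit of ribonucleotide reductase, had a log2 fold change of 0.24 ± 0.07 (SE) with an edgeR adjusted p of 0.0937 and a DESeq2 adjusted p of 0.0359, and RNR4, a small subunit, 0.09 ± 0.08 (SE).

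Neither genes that use UTP nor genes that act on the Fur4 protein passed in edgeR, DESeq2 or limma-voom. The shares of all genes were 1.14%, 14.6% and 1.04%. In both lists 0 had an unadjusted p under 0.05, against 27.3% of all genes. UGP1, which makes UDP-glucose from UTP and was the more abundant of 2 genes for UDP-sugar synthesis, was at 0.11 ± 0.10 (SE). RSP5, the ubiquitin ligase that triggers endocytosis of Fur4, and YCK2, a casein kinase that phosphorylates it, were at 0.06 ± 0.09 (SE) and 0.17 ± 0.09 (SE), out of 4 genes in that list. The median was 0.05 for UDP-sugar synthesis (0.0056 with the GC-content correction) and 0.09 for the genes acting on Fur4 (-0.0061). Of the 4 genes acting on Fur4, 3 values were positive and 1 negative, which became 1 positive and 3 negative with the correction. With it YCK2 stayed at 0.16 ± 0.07 (SE) and RSP5 was at -0.0014. For 2 of the 4, YCK2 among them, the producer libraries all lay above the parental ones. Of all genes tested, 33.7% were separated in either direction.

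Levels among the members were compared per kilobase of coding length. URA1 was highest, at 779 ± 93.8 CPM per kb in the producer and 846 ± 62.8 CPM per kb in the parent (SD, n = 3 each). URA5 came next, at 192 ± 8.62 CPM per kb in the producer and 194 ± 9.90 CPM per kb in the parent, and PPR1 was lowest, at 13.8 ± 1.04 CPM per kb in the producer and 14.1 ± 1.43 CPM per kb in the parent. Between them the order in the producer was URA4, URA6, URA2, URA8, URA7, URA10 and URA3. In the parent it was the same except that URA10 stood above URA7. In both strains URA4 overlapped URA6 and URA2 overlapped URA8 over the libraries, and in the producer URA7, URA10 and URA3 overlapped their neighbours in the order.

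The balance within each pair of isoenzyme genes overlapped between the strains. Per kilobase, URA5 had 3.72, 3.50 and 3.10 times the level of URA10 in the producer, against 3.05, 3.14 and 3.50 times in the parent (two-sided exact permutation p = 0.4). URA8 had 1.76, 1.15 and 1.22 times the level of URA7 in the producer, against 1.52, 1.17 and 1.35 times in the parent (two-sided exact permutation p = 1.0). These were 2 tests, with p-values given unadjusted, and 3 against 3 libraries cannot go below 0.1.

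Reads of these pairs can be told apart by sequence over most of their length. The coding sequences of URA5 and URA10 were identical at 70.4% of 672 aligned bases and those of URA7 and URA8 at 72.5% of 1729. The longest run shared without a mismatch was 11 bases in the first pair and 17 in the second. These runs are printed in capitals with 15 bases on each side, on the strand of the gene, because they are the places where the copies are hardest to separate.
URA5, chrXIII:56821-56861, plus strand: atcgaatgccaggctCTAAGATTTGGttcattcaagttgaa
URA10, chrXIII:807451-807491, minus strand: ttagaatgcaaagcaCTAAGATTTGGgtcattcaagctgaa
URA7, chrII:145019-145065, minus strand: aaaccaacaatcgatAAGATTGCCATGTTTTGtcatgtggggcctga
URA8, chrX:621417-621463, plus strand: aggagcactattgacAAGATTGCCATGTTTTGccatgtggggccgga

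Within the pathway the libraries differed more by gene than together. The highest library was between 1.12-fold (URA5) and 1.42-fold (URA7) above the lowest, where the median of all tested genes was 1.29-fold. Averaged over the 10 members, log2 CPM relative to the mean of all libraries was 0.01, 0.04 and -0.01 in the producer, against 0.03, -0.02 and -0.05 in the parent. By the smallest root mean square difference from this mean profile over the 6 libraries, among 4954 genes with a standard name, RAD18 (0.015 on the log2 scale), PKH1 (0.019), LAG1 (0.021), PPN1 (0.021) and KEX2 (0.023) were closest. The 5 were picked for closeness to a nearly flat profile. That none passed in edgeR, with adjusted p-values of 0.618 to 0.948, follows from this choice and is not separate evidence.

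URA2 had a pattern across libraries that crossed the strains and that many other genes shared. Relative to the mean of the 6 libraries, its log2 CPM was 0.04, 0.15 and -0.26 in the producer, against 0.15, -0.21 and 0.13 in the parent, so producer replicate 3 and parent replicate 2 were low. These 2 libraries were the lowest pair for 758 of the 6125 genes tested (12.4%), and among the members for URA2 and URA4. ARG3 and CPA1 of arginine synthesis, the other branch that uses carbamoyl phosphate, were among these genes, as were FCY2, FCY21, LEU2 and SDT1, so the pattern is not particular to arginine or pyrimidine genes. ARG3, ornithine carbamoyltransferase, had 246, 318 and 128 CPM in the producer, against 276, 129 and 304 CPM in the parent. CPA1, a subunit of the arginine-specific carbamoyl phosphate synthetase, had 785, 874 and 588 CPM in the producer, against 720, 412 and 649 CPM in the parent. FCY2 had 313 CPM in producer replicate 3 and 273 CPM in parent replicate 2, against 448 to 529 CPM elsewhere. The 2 arginine genes had log2 fold changes of 0.34 ± 0.21 (SE) for CPA1 and -0.04 ± 0.38 (SE) for ARG3. Of the 2, 0 passed in edgeR, DESeq2 or limma-voom (1.14%, 14.6% and 1.04% of all genes). At an unadjusted p under 0.05 there were 0 (27.3% of all genes). ARG3 and this pattern were picked out after the values were seen.

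**Figure D4:**
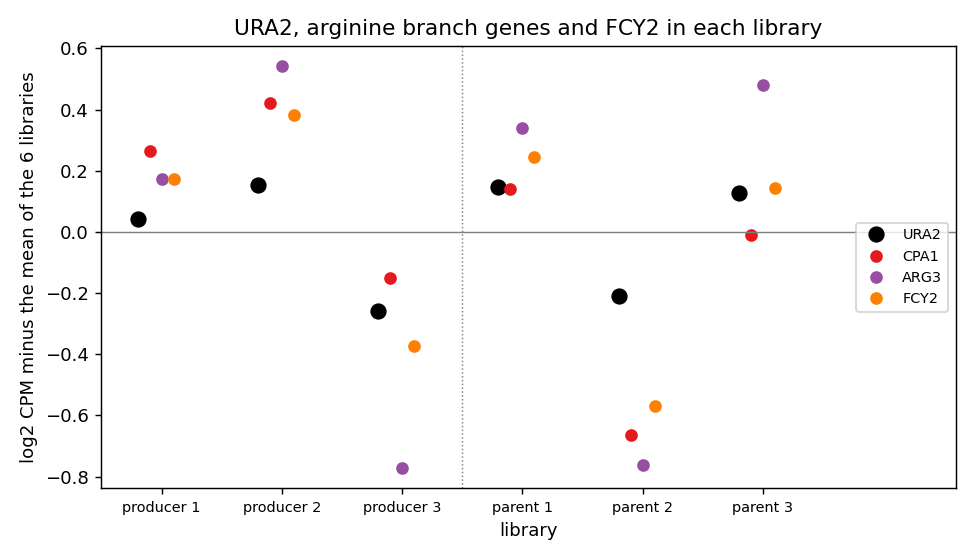
Log2 CPM of URA2, of the arginine branch genes CPA1 and ARG3, and of FCY2, each minus its mean over the 6 libraries, with producer libraries to the left of the dotted line and parental ones to its right. Producer replicate 3 and parent replicate 2 lie below 0 for all 4 genes, with ARG3 at -0.77 and -0.76.

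Library totals ranged from 48383161 to 58296520 estimated counts, and members had 1684 (PPR1) to 47591 (URA1) counts per library, so counting error was at most a few percent of a value. The labels do not state that replicates were separate cultures, so the p-values reflect differences among the sampled libraries only, and part of that spread may be technical.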

How the data were processed

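The authors deposited 1 table per library that holds an estimated count for each gene as a whole number. Per the file headers these come from StringTie files made after duplicate removal. The build sacCer3 and the tools HISAT2, Picard, SAMtools, FastQC and DESeq2 are named by the submitters' processing notes, and the sources used here give no versions, parameters or use of strand. The 6 tables of 6445 genes were joined by name, and 6129 names matched the R64 annotation. The main test was edgeR 4.0.16 (R 4.3.3) quasi-likelihood, two-sided, with filterByExpr, TMM scaling, group as the only term and Benjamini-Hochberg adjustment over 6125 genes. SE is the log2 fold change over the square root of F, and log2 CPM used a prior count of 2. Alternatives were 17: other scalings, filters and terms, DESeq2 1.42.0, limma-voom (limma 3.58.1), leaving out each library, and a GC-content correction (loess, span 0.5, genes of at least 5 CPM, as an offset). The fit was tested on simulated data. Members and lists were chosen with earlier results of these data known. Named are all members, all uptake, salvage and marker genes, of other lists the passing, the smallest adjusted p and the most abundant, GAL1, and the 5 genes most like the members. ARG3 and SOD1 were picked once their values had been seen, and 1 further gene was left out of the lists and is not reported here.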

Additional observations from a re-analysis of the deposited data

How the results depend on the processing

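In all 17 alternatives 0 of the 10 members passed and FUR4 passed, with a log2 fold change of 2.28 to 2.39. FUR4 minus member separated the strains for 10 of 10 members with the GC-content correction and without any 1 library. Because FUR4 was already known to be higher and enters all 10, this restates its shift and is not separate evidence. The count over all genes, 70 at first, was 10 with the library total as a covariate, 26 with the GC-content correction and replicate block, 842 in DESeq2 and 15 to 1077 when 1 library was left out (highest without parent replicate 1); genes called in the supporting lists, 1 at first, were 4 in DESeq2 and 1 to 7, with 7 without parent replicate 1. The replicate number as a block gave 104 genes, 0 members and FUR4 at 2.33. After removal of strain means, same-numbered libraries had correlations of 0.238, -0.231 and -0.459. Such correlations, of deviations from means of 3 libraries, cannot settle whether the numbers pair the libraries, and the labels do not say. The members' median was -0.058 with library totals only, -0.050 with the GC-content correction (-0.053 with the block) and -0.033 to 0.051 with 1 library left out. In the main fit URA8 was at 0.17, SOD1 at 0.22, LEU2 at 0.13 and FCY2 at 0.11. These and some, but not all, of the values nearer 0 changed sign in some settings without passing, and the cause was not tested. With the GC-content correction (and with the block in addition) these were URA3 -0.049 (-0.051), URA6 -0.13 (-0.12), URA8 -0.046 (-0.046), PPR1 0.024 (0.026), SDT1 0.038 (0.046), RSP5 -0.0014 (-0.0013), LEU2 -0.036 (-0.032), ARG3 0.095 (0.10) and SOD1 -0.12 (-0.11). With the library total as a covariate they were URA5 0.043, FCY2 -0.17, RNR4 -0.013, RSP5 -0.011 and LEU2 -0.074. With RLE factors and in DESeq2 URA4 was at 0.0009, and with library totals only URK1 was at -0.025. With 1 library left out the ranges were -0.15 to 0.068 for URA2, -0.071 to 0.061 for URA4, -0.044 to 0.030 for URA5, -0.10 to 0.044 for PPR1, -0.10 to 0.30 for FCY2, -0.085 to 0.21 for URK1, -0.13 to 0.056 for SDT1, -0.34 to 0.25 for ARG3 and -0.013 to 0.25 for LEU2.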
